A study of Mus musculus with 8 samples.

Results

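The 10 genes named for neutrophils and the acute-phase response and followed here in regenerating mouse muscle were Lcn2, Hp, Saa3, Serpina3n, Wfdc17, S100a8, S100a9, Ngp, Csf3r and Plac8. These 10 genes are 10 of the 19752 genes that had an array row naming them alone, and each had exactly 1 such row. Where a gene has several rows the brightest over all 8 samples is taken, and the levels are then set out by genotype and by the number in the sample titles, 1 or 2 against 3 or 4. The genes were selected on their measured differences by genotype and by number in earlier results of these data, so both differences are given as descriptions and support nothing beyond them. The arrays came from the tibialis anterior, a shin muscle, of male C57BL/6 mice, taken 8 days after freezing injury with a chilled metal probe held for 8 seconds. In all, 4 samples were Foxp3-Cre with a floxed ST2 gene (ST2 FL/Foxp3-Cre, called ST2 flox) and 4 were Foxp3-Cre with the wild-type ST2 gene (ST2 WT/Foxp3-Cre, called ST2 WT). Both genotypes therefore carried Foxp3-Cre and the same injury, and the labels give an age of 10 weeks where the series description gives 2 months. Foxp3 drives Cre in regulatory T cells, so deletion of the floxed gene is directed to those cells and not to the myeloid, stromal or muscle cells of the tissue. ST2 itself was not analysed here, so the arrays give no direct check of the deletion.

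Neutrophils are short-lived white cells that enter injured muscle early and leave before the macrophages of the repair phase. Their granules and cytosol hold antimicrobial proteins, among them lipocalin-2 and the S100A8 and S100A9 pair, and their growth factor receptor is encoded by Csf3r. The acute-phase response is the rise of secreted defence and scavenging proteins driven by interleukin-1 and interleukin-6. It is best known in liver, but Lcn2, Hp, Saa3 and Serpina3n are also made locally by macrophages, fibroblasts, fat or muscle.

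Skeletal muscle fibre markers were bright on every array, with a mean log2 intensity of 13.057 to 13.145 in ST2 flox and 13.002 to 13.181 in ST2 WT over 12 genes. Median intensity per array lay between 184.9 and 189.2. The labels do not say what the title numbers mark or that each sample is a separate animal, so errors and p-values reflect differences among these samples alone and could be technical. A single array stood apart for skin: the mean of 9 keratinocyte markers was 8.25 on WT array 4, against 6.35 to 6.73 on the ST2 flox arrays and 6.53 to 6.58 on the other WT arrays. In bulk muscle, fewer cells of a type and less RNA per cell cannot be told apart.

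The neutrophil label was checked against neutrophil genes outside the list. Ly6g, the surface protein that defines mouse neutrophils, lay below the filter on dim rows (a mean log2 intensity of 6.35, the 25th percentile of all rows) on every array, at 5.60 to 5.87 in ST2 flox and 5.72 to 5.79 in ST2 WT. Of 17 further neutrophil granule genes, 5 lay below that filter, including Ltf, the lactoferrin gene, Mmp8, the neutrophil collagenase, and Ctsg, cathepsin G. Of 28 surface and cytosolic neutrophil genes with a row, 8 lay below it on average, including Retnlg, Clec4e and Cxcr2, the receptor for neutrophil chemokines. Single arrays did exceed it: Clec4e was at 7.25 and 7.10 on flox arrays 1 and 2 and at 6.72 on WT array 2. Cxcr2 was at 6.54 and 7.10 on flox arrays 1 and 2, while the rest of these dim genes stayed below the filter on every array. Of all genes with a row of their own, 24.0% lay below it, so both counts are near that share. Of the 10 listed genes, 2 (S100a8 and Ngp) were also below the filter and did not enter the tests, which left 8. Counts near the share of all genes cannot settle the neutrophil label. The 10 genes are called by their names below, and the list is not read as a measure of neutrophils.

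Lcn2 encodes lipocalin-2, which binds bacterial siderophores and so withholds iron. Its log2 intensity was 9.24, 8.57, 7.73 and 7.30 on ST2 flox arrays 1 to 4, against 7.83, 8.52, 7.50 and 7.17 on ST2 WT arrays 1 to 4. The genotypes overlapped, and within each genotype the arrays numbered 1 and 2 were above those numbered 3 and 4. The genotype means were 8.21 ± 0.87 in ST2 flox and 7.76 ± 0.58 in ST2 WT (SD, n = 4 each), a difference of 0.45 (SE 0.40), which leaving out flox array 1 made 0.11 and leaving out flox array 4 made 0.76. By number the means were 8.54 ± 0.57 for arrays 1 and 2 and 7.42 ± 0.25 for arrays 3 and 4 (SD, n = 4 each), a 2.17-fold difference.

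Hp encodes haptoglobin, which captures free haemoglobin. It was at 9.03, 8.20, 7.62 and 7.35 on ST2 flox arrays 1 to 4, against 7.51, 8.38, 7.49 and 7.68 on ST2 WT arrays 1 to 4. Flox arrays 1 and 2 and WT array 2 were the high ones, while WT array 1 lay with the low ones. The genotypes differed by 0.29 (SE 0.33) and the numbers by 0.74.

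Saa3 encodes serum amyloid A3, the form of this acute-phase protein that mouse macrophages and fat make outside the liver. It was at 8.70 and 8.05 on flox arrays 1 and 2 and at 6.61 and 6.37 on flox arrays 3 and 4, against 6.56, 7.70, 6.35 and 6.53 on WT arrays 1 to 4. The low arrays all sat close to the filter, and WT array 2 alone was clearly raised among the WT arrays. The genotype means were 7.43 ± 1.12 in ST2 flox and 6.78 ± 0.62 in ST2 WT (SD, n = 4 each), a difference of 0.65 (SE 0.49). Leaving out flox array 1 made it 0.23, and leaving out flox array 4 made it 1.005. The numbers differed by 1.29, or 2.44-fold, although WT array 1 overlapped arrays 3 and 4. Saa1 and Saa2, the serum amyloid genes of the liver, both lay below the filter, with means of 3.81 and 5.16 over the 8 arrays.

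Serpina3n, a secreted inhibitor of serine proteases such as granzyme B, showed the widest split by number. It was at 11.41, 10.91, 9.82 and 8.99 on ST2 flox arrays 1 to 4, against 10.43, 11.05, 9.12 and 9.72 on ST2 WT arrays 1 to 4. All 4 arrays numbered 1 or 2 were above all 4 numbered 3 or 4, and the genotypes overlapped almost completely. The number means were 10.95 ± 0.40 for arrays 1 and 2 and 9.41 ± 0.42 for arrays 3 and 4 (SD, n = 4 each), a 2.90-fold difference, while the genotypes differed by 0.20 (SE 0.53).

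Wfdc17 encodes a small secreted protein with a whey acidic protein domain, made by activated mouse macrophages. Its levels were 12.37, 12.30, 11.14 and 10.47 on ST2 flox arrays 1 to 4, against 11.63, 12.19, 10.87 and 11.05 on ST2 WT arrays 1 to 4. It split by number as Serpina3n did, by 1.24 or 2.36-fold, and its genotype difference, 0.13 (SE 0.42), was the smallest of the 10.

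S100a8 and S100a9 encode the 2 subunits of calprotectin, a calcium- and zinc-binding pair that is abundant in neutrophil cytosol. S100a9 was at 7.65, 7.03, 6.88 and 6.82 on ST2 flox arrays 1 to 4, against 6.79, 7.001, 6.88 and 6.69 on ST2 WT arrays 1 to 4. S100a8 was at 6.31, 5.92, 5.69 and 5.62 on ST2 flox arrays 1 to 4, against 5.64, 5.75, 5.62 and 5.46 on ST2 WT arrays 1 to 4, all below the filter. In both genes flox array 1 stood highest, and the other arrays overlapped between the genotypes. The genotype difference was 0.26 (SE 0.16) for S100a9 and 0.27 for S100a8, and the number difference was 0.30 and 0.31 for the same genes. Without flox array 1 the genotype difference was 0.07 for S100a9 and 0.13 for S100a8, and the number difference was 0.12 for S100a9 and 0.17 for S100a8.

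Ngp, which encodes a secondary granule protein made by maturing neutrophils, varied among flox arrays in another way. It was at 7.18, 5.32, 6.66 and 5.64 on ST2 flox arrays 1 to 4, against 5.44, 5.67, 5.69 and 5.53 on ST2 WT arrays 1 to 4. Only flox arrays 1 and 3 were above the filter, and flox array 2, high for most of the other genes, was the lowest of all 8. The genotype difference was 0.62, and 0.29 without flox array 1, and the number difference was 0.02. Among the 17 other granule genes the largest genotype difference in size was that of Ctsg, -0.23, which was below the filter too.

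Csf3r encodes the receptor for granulocyte colony-stimulating factor. It was at 8.54 and 8.70 on flox arrays 1 and 2 and at 7.64 and 7.45 on flox arrays 3 and 4, against 7.59, 7.86, 7.54 and 7.62 on WT arrays 1 to 4. Flox arrays 1 and 2 stood above all 6 other arrays, which lay between 7.45 and 7.86. The genotype means were 8.08 ± 0.63 in ST2 flox and 7.65 ± 0.14 in ST2 WT (SD, n = 4 each), a difference of 0.43 (SE 0.25), which was 0.22 without flox array 2. Csf3, the gene of its ligand, lay near the filter on every array, at 6.12 to 6.49 in ST2 flox and 6.21 to 6.46 in ST2 WT.

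Plac8, a cysteine-rich protein of myeloid and other cells, was at 8.14, 7.23, 7.59 and 6.22 on ST2 flox arrays 1 to 4, against 6.79, 6.93, 6.76 and 7.59 on ST2 WT arrays 1 to 4. It followed neither genotype nor number, and WT array 4, the array with keratinocyte markers, was its highest WT array. The genotype difference was 0.28 (SE 0.35), 0.47 without WT array 4 and 0.64 without flox array 4. The part of skin RNA in this value was not tested.

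**Figure D1:**
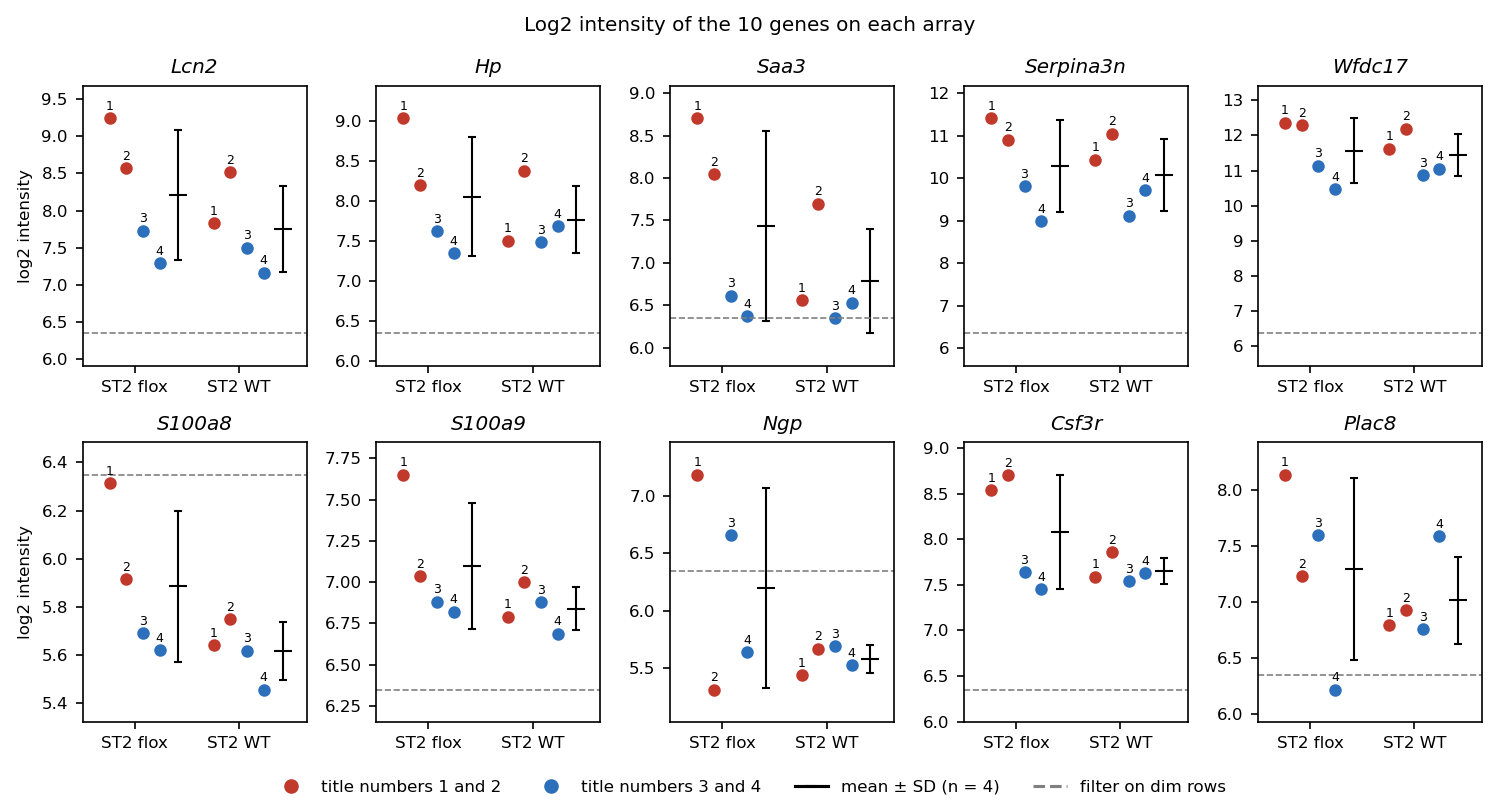
Log2 intensity of each of the 10 genes on the 8 arrays, with ST2 flox left of ST2 WT in each panel, the title number above each point, red for numbers 1 and 2, blue for numbers 3 and 4, bars for mean ± SD (n = 4) and a dashed line for the filter at 6.35. In Lcn2, Serpina3n and Wfdc17 every red point lies above every blue point, whereas the genotypes overlap in all 10 panels.

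Across genotypes the 10 genes had the same sign but wide scatter. All 10 had a higher mean in ST2 flox, where 48.8% of the 15007 genes tested did, with a median difference of 0.28 over the 10 and -0.002 over all genes tested. In none of the 10 did the ST2 flox arrays lie wholly above the ST2 WT arrays, as they did for 1.14% of all genes, or wholly below them, as for 0.826%. Saa3 and Ngp differed by 1.5-fold or more between genotypes, as 0.0466% of all genes did. In limma, after Benjamini-Hochberg adjustment across the whole table, 0 of the 8 genes that passed the filter and 0% of all genes were called by genotype, and the smallest adjusted p among the 8 was 0.912. At an unadjusted p under 0.05 limma had 0 of the 8 and 3.79% of all genes, with 2.03% higher in ST2 flox. With the pair of title numbers as a block limma had 1 of the 8 at that level, Csf3r (SE 0.17, unadjusted p 0.0307), and 929 of the 15007 genes tested. Lcn2 and Saa3 were at unadjusted p 0.0520 and 0.0523 in that limma fit, and the adjusted p was 0.753 for each of these genes. The 10 genes were selected on the same number contrast that this block takes out, so nothing is read from these p-values. The median difference was 0.09 without flox array 1, when Hp, Serpina3n, Wfdc17 and Plac8 had a lower mean in ST2 flox (-0.039, -0.17, -0.13 and -0.0027), and 0.64 without flox array 4. Averaged over the 10 genes, log2 values centred per gene were 1.03, 0.39, -0.09 and -0.61 on ST2 flox arrays 1 to 4, against -0.21, 0.27, -0.45 and -0.33 on ST2 WT arrays 1 to 4. The flox arrays thus held both the highest and the lowest value of the 8.

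By title number the differences were larger for 8 of the 10 genes, all but Ngp and Plac8. All 10 genes had a higher mean on arrays 1 and 2 than on arrays 3 and 4, where 43.3% of all genes did. Ngp was lower there without flox array 1 (-0.40), flox array 4 (-0.06), WT array 3 (-0.04) or WT array 4 (-0.10), and Plac8 without flox array 1 (-0.06) or flox array 4 (-0.04). Of the 10, 4 (Lcn2, Saa3, Serpina3n and Wfdc17) were at least 2-fold higher, as were 0.0866% of all genes, or 13 genes, and 0 were 2-fold lower, as 0.0133% of all genes were. Without flox array 1 Lcn2 (0.88) and Saa3 (0.97) fell short of 2-fold, which left 2. Lcn2, Serpina3n and Wfdc17 did not overlap between the numbers, with arrays 1 and 2 above arrays 3 and 4, as was so for 4.54% of all genes, and 0 of the 10 lay wholly lower, as 6.21% did. The rule names this contrast, so these shares are set beside the counts and nothing is read from them. The median difference was 0.67 over the 10 genes and -0.02 over all genes tested. WT array 1 accounted for most of the overlap: without it 8 of the 10 genes, all but Ngp and Plac8, lay wholly higher on arrays 1 and 2, as did 9.25% of all genes. Without flox array 3 it was 5 of the 10, and 8.14% of all genes. Leaving out any array can only keep or raise such counts. Flox arrays 1 and 2 and WT array 2 were the 3 highest arrays for 8 of the 10 genes, again all but Ngp and Plac8, and for 7.31% of all genes.

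**Figure D2:**
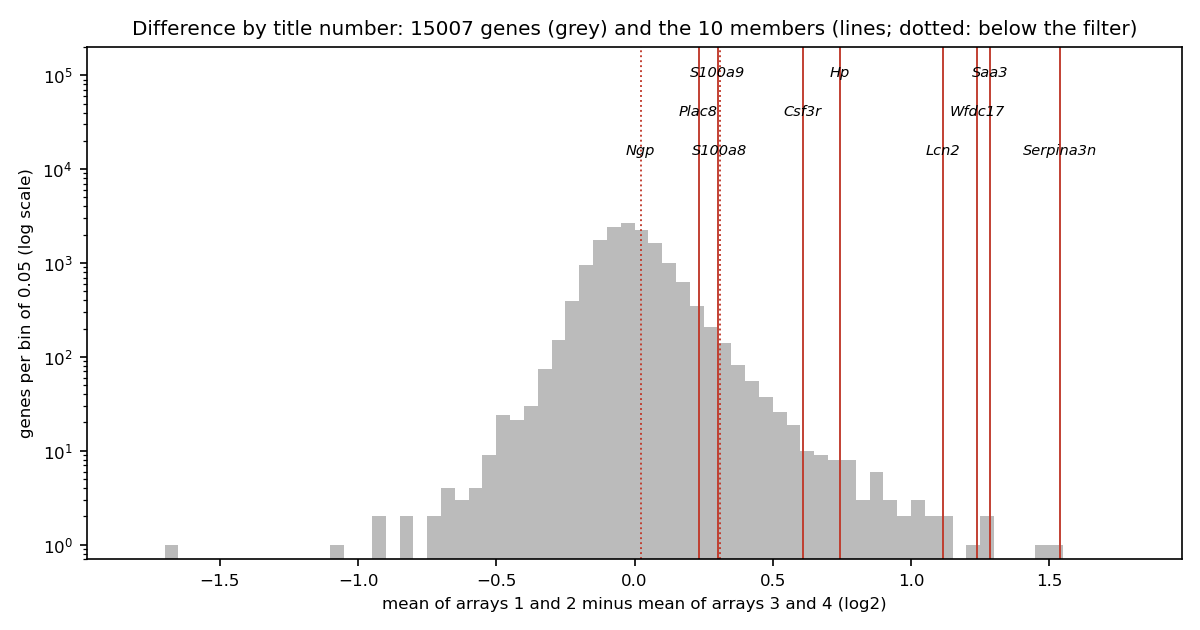
Histogram, with a log scale on the vertical axis, of the mean log2 intensity of arrays 1 and 2 minus that of arrays 3 and 4 for 15007 genes, with a line for each of the 10 genes (dotted for S100a8 and Ngp, which were below the filter). Lcn2, Saa3, Serpina3n and Wfdc17 lie beyond 1, where the histogram holds 13 genes in all, while Ngp lies at 0.02.

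The genotype difference was also taken within each pair of title numbers, each with 2 ST2 flox and 2 ST2 WT arrays. For Csf3r it was 0.89 (SE 0.11) on arrays 1 and 2 and -0.04 (SE 0.11) on arrays 3 and 4. The difference between these, 0.93 (SE 0.15), had an adjusted p of 0.278 in limma with an interaction term. This p ranged from 0.0449 without flox array 3, when the remaining flox array 4 was assumed to vary like the others, to 0.621 without flox array 4. For Saa3 the genotype difference was 1.25 (SE 0.32) on arrays 1 and 2 and 0.05 (SE 0.32) on arrays 3 and 4, with an adjusted p of 0.298 in limma for the difference between them. For Lcn2 it was 0.73 (SE 0.27) and 0.18 (SE 0.27) on the same pairs of arrays. Within arrays 3 and 4 the genotype difference of the 8 genes that passed the filter lay between -0.27 (Plac8) and 0.18 (Lcn2), and within arrays 1 and 2 between 0.42 (Serpina3n and Wfdc17) and 1.25 (Saa3). In limma 0 of the 8 genes and 0% of all genes were called for the interaction. At an unadjusted p under 0.05 limma had 2 of the 8 genes, Saa3 and Csf3r, and 15.3% of all genes. These genes were selected on genotype and number differences of the same arrays. Nothing is therefore read from the interaction p-values, with all arrays or with any left out. Leaving out flox array 3 raised the interaction calls to 328 genes, Csf3r among them, and leaving out WT array 3 raised them to 6 genes, with 0 of the 8.

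**Figure D3:**
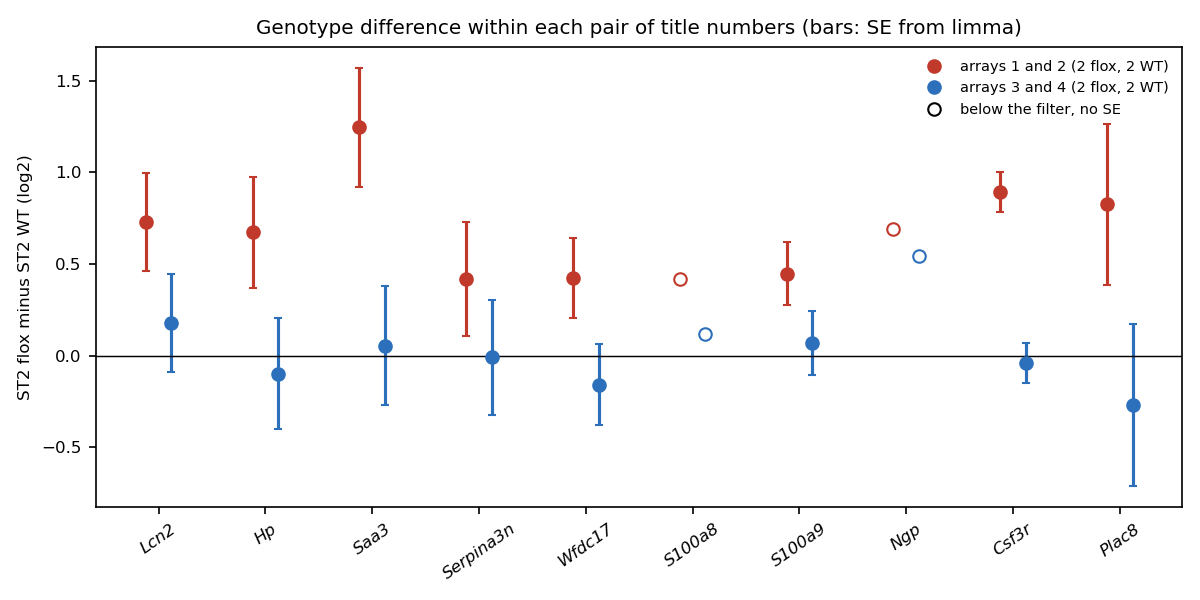
ST2 flox minus ST2 WT in log2 intensity for each gene, in red within arrays 1 and 2 and in blue within arrays 3 and 4 (2 arrays of each genotype in each), with bars for limma's SE and open points for the genes below the filter. The colours stand furthest apart for Saa3 (1.25 and 0.05), Plac8 (0.83 and -0.27) and Csf3r (0.89 and -0.04), and the bars are longest for Plac8.

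Because Lcn2, Saa3, Serpina3n and Wfdc17 were at least 2-fold higher on arrays 1 and 2 with all arrays kept, the 250 bases before their RefSeq start (build GRCm38.p6) are shown, 5′ to 3′ on the gene's strand. The windows are chr2:32387740-32387989 (minus strand) for Lcn2, chr7:46715677-46715926 (minus strand) for Saa3, chr12:104406458-104406707 (plus strand) for Serpina3n and chr11:83703806-83704055 (plus strand) for Wfdc17. Capitals mark matches, on either strand, to TTNCNNAA, a loose form of the motif of C/EBP factors that act in myeloid and acute-phase genes, or to a form of the NF-kB motif, the single GGGCTTTTCC of Serpina3n.
Lcn2: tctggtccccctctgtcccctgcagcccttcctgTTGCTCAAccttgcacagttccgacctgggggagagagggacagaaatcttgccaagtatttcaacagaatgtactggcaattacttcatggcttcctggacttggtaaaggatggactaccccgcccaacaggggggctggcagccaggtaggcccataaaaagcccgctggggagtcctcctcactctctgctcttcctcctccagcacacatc
Saa3: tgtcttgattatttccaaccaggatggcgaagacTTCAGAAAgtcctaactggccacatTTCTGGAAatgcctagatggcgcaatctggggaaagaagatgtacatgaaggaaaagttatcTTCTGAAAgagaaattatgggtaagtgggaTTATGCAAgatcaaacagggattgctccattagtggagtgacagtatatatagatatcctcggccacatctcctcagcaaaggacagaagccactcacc
Serpina3n: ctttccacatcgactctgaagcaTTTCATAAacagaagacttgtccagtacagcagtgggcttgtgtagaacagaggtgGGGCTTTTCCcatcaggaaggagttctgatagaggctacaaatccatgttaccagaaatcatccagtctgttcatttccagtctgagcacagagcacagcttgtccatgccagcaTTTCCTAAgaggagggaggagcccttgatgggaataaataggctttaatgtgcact
Wfdc17: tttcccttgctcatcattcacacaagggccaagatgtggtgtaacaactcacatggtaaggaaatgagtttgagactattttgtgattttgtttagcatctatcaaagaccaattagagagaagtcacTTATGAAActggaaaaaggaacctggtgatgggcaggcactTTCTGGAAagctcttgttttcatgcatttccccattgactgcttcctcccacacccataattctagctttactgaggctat

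The C/EBP form was found once in the Lcn2 window, 4 times in that of Saa3, 2 times in that of Serpina3n and 2 times in that of Wfdc17. RefSeq's table held a window for 9 of the 10 genes, all but Hp, with 2 for Plac8. The C/EBP form stood in 9 of these 10 windows (all but that of Csf3r), against 36.8% of all 32851 windows of the same length. Median GC content was 52.6% in the 10 windows and 52.4% in all. The NF-kB form was found in 1 of the 10 windows, that of Serpina3n, against 15.9% of all windows. The STAT form TTCNNNGAA, searched in the same way, was found in 0 of the 10 and in 7.02% of all. No match overlapped a match to another of these motifs. A match describes letters only, and this short and loose motif occurs in many promoters.

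Other genes of the pathway were taken from lists. Of 23 acute-phase protein genes with a row, 12 were below the filter, and limma called 0 of the other 11 by genotype. By number 2 of these 11 lay wholly higher on arrays 1 and 2 (4.54% of all genes did) and 0 wholly lower. These were Lbp, which carries bacterial endotoxin to CD14, with a difference of 0.87, and the copper-binding ferroxidase Cp, with 0.47. Complement factor B, encoded by Cfb, differed by 0.71 and the metallothionein gene Mt2 by 0.57, both with overlap. These 4 had the largest differences of the list, in which 5 of the 11 were higher and 6 lower on arrays 1 and 2, with a median of -0.06 over all 23. By genotype the smallest unadjusted p was that of Fga, a fibrinogen chain gene, at -0.13 (SE 0.08). Of 5 tested hepatocyte markers, 0 had a higher mean on arrays 1 and 2, and the mean of 10 hepatocyte markers was 6.09 to 6.32 on arrays 1 and 2, against 6.23 to 6.42 on arrays 3 and 4, with 5 of the 10 below the filter.

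Of the 16 tested genes that signal in the acute-phase response, limma called 0 by genotype, and all 16 had a higher mean on arrays 1 and 2. Il1b, which encodes the inflammatory cytokine interleukin-1 beta, was at 7.77, 7.60, 6.60 and 6.34 on ST2 flox arrays 1 to 4, against 6.25, 6.98, 6.26 and 6.18 on ST2 WT arrays 1 to 4. Like Saa3, it was high on flox arrays 1 and 2 and on WT array 2. Osmr, a receptor chain for oncostatin M, differed by 0.43 by number and Steap4, a metalloreductase induced in inflammation, by 0.34. By genotype Il1rn, which encodes the interleukin-1 receptor antagonist, differed by 0.28 (SE 0.10) and Il1b by 0.66 (SE 0.31), both with overlap. Il6, the gene of interleukin-6, was below the filter on all arrays, at 4.15 to 4.73 in ST2 flox and 4.07 to 4.32 in ST2 WT.

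Among neutrophil genes outside the 10, limma called 0 of 12 granule genes and 0 of 20 surface and cytosolic genes by genotype. Of the 12 granule genes 9 had a lower mean in ST2 flox, among them Elane, neutrophil elastase, at -0.17 (SE 0.07), and Olfm4 at -0.18 (SE 0.08). In the surface and cytosolic list 15 of the 20 tested genes had a higher mean in ST2 flox and 5 a lower one. Pilra, a paired receptor of myeloid cells in that list, differed by 0.45 (SE 0.15) by genotype. By number 3 of the 12 granule genes were higher on arrays 1 and 2 and 9 lower, with a median of -0.02 over all 17. The surface and cytosolic list went the other way, with 17 of the 20 higher there and 3 lower, and a median of 0.12 over all 28. Averaged over those 28 genes, centred log2 values were highest on flox arrays 1 and 2 (0.17 and 0.28) and WT array 2 (0.07). Of all genes, 4.54% lay wholly higher there and 6.21% wholly lower. By number 0 of the 12 granule genes lay wholly higher on arrays 1 and 2 and 1, Prtn3, lay wholly lower. Mmp8, below the filter, lay wholly higher by 0.21, but narrowly, with WT array 1 at 5.13 and flox array 4 at 5.11. Trem1, in the surface and cytosolic list and also below the filter, lay wholly higher by 0.22. Mmp9, the gelatinase of neutrophil granules and macrophages, differed by 0.67, with overlap. Clec4d, a lectin receptor of myeloid cells, differed by 0.85, again with overlap, and 1 of the 20 surface and cytosolic genes, the oxidase subunit gene Ncf1, lay wholly higher, a share near that of all genes. Cxcr2, although below the filter on average, was at 6.54, 7.10, 5.30 and 5.07 on ST2 flox arrays 1 to 4, against 5.27, 6.07, 5.25 and 5.44 on ST2 WT arrays 1 to 4. It was thus high on the same 3 arrays as most of the 10 genes. Clec4e, likewise below the filter on average, was high on these 3 arrays too. It differed by 1.00 by number and by 0.70 by genotype, both with overlap. Ppbp, a chemokine precursor of platelets and myeloid cells, differed by 1.28 by number. It was wholly higher on arrays 1 and 2, as 4.54% of all genes were, but only narrowly. WT array 1 was at 7.514 and WT array 4 at 7.513. In the list of neutrophil attraction and growth, Cxcr4, a receptor that holds neutrophils in marrow, was wholly higher in ST2 flox, by 0.23 (SE 0.06, limma's adjusted p 0.912), as 1.14% of all genes were.

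Within the S100 family, S100a4, a calcium-binding protein of motile and stromal cells, differed by 0.70 by number without overlap. S100a10 differed by 0.37, S100a11 by 0.32 and S100a6 by 0.31, each with overlap. Of 10 tested S100 genes outside the 10 listed genes, 7 had a higher mean on arrays 1 and 2, and limma called 0 by genotype.

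Markers of other cells that make these proteins moved with the numbers to different extents. The mean over 17 macrophage and monocyte markers was 9.19 to 9.64 on arrays 1 and 2, against 9.02 to 9.37 on arrays 3 and 4, with 15 of the 17 higher, 2 wholly higher and 1 wholly lower (4.54% and 6.21% of all genes). Among the 15 were Mrc1, the mannose receptor, at 0.64, and Ccr2, a receptor of recruited monocytes, at 0.55, both with overlap. Ccr2 was at 8.89, 9.12, 8.30 and 7.38 on ST2 flox arrays 1 to 4. On ST2 WT arrays 1 to 4 it was at 8.07, 8.05, 8.13 and 8.12, so the WT arrays did not share this difference. Fibroblast and fibro-adipogenic progenitor markers averaged 11.09 to 11.44 on arrays 1 and 2, against 10.72 to 11.24 on arrays 3 and 4, with 8 of 10 higher and 0 apart. Adipocyte markers averaged 8.17 to 8.61 on arrays 1 and 2, against 8.28 to 8.42 on arrays 3 and 4. Flox array 1 was the highest of all arrays and flox array 2 the lowest. Of 8 tested adipocyte markers, 3 were higher on arrays 1 and 2 and 5 lower. Of 12 muscle fibre markers, 4 lay wholly lower on arrays 1 and 2, as 6.21% of all genes did, and 0 wholly higher. Among these was the fast light chain gene Mylpf at -0.27, and Myh2, a myosin heavy chain gene, differed by -0.30 with overlap. T cell markers averaged 7.02 to 7.41 on arrays 1 and 2, against 6.99 to 7.15 on arrays 3 and 4. The part of these cells in the values of the 10 genes was not tested. By genotype all 17 macrophage markers had a higher mean in ST2 flox, with list means of 9.02 to 9.64 in ST2 flox and 9.19 to 9.34 in ST2 WT. Likewise 6 of 7 T cell markers were higher in ST2 flox, with list means of 6.99 to 7.41 in ST2 flox and 6.99 to 7.02 in ST2 WT, and Cd3g, a chain of the T cell receptor complex, differed by 0.85 (SE 0.28). All 5 cell cycle markers were higher in ST2 flox, with list means of 7.74 to 8.11 in ST2 flox and 7.58 to 7.67 in ST2 WT and a median difference of 0.34. Of these, 4 had an unadjusted p under 0.05 in limma, as 3.79% of all genes did. Wholly higher in ST2 flox were 2, Cdk1 and Mcm4, as 1.14% of all genes were. None passed after adjustment in limma (smallest adjusted p 0.912). The part of these lists in the genotype differences of the 10 genes was not tested.

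**Figure D4:**
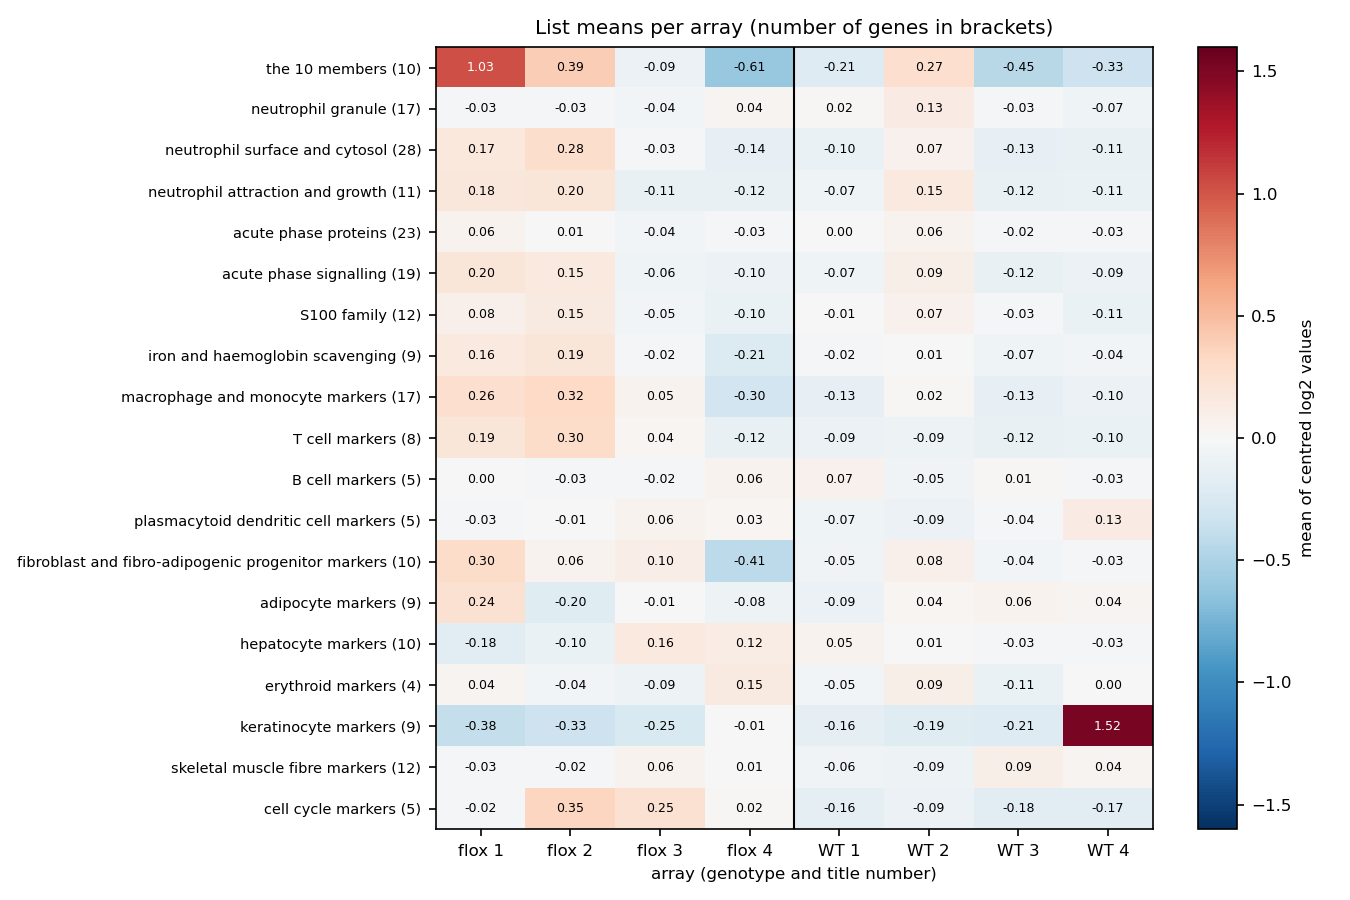
Mean over each gene list of log2 intensities centred per gene (colour and printed value) on the 4 ST2 flox arrays, left, and the 4 ST2 WT arrays, right, with the number of genes in brackets. The 10 genes span 1.03 on flox array 1 to -0.61 on flox array 4, neutrophil granule genes stay between -0.07 and 0.13, and keratinocyte markers reach 1.52 on WT array 4.

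The genes outside the list whose pattern was most like the mean of the 10 centred profiles were Tnks, Ldb1, Gxylt2, Gulp1, Plekhg3, Pygl, Slc39a14, Rab3il1, Tbc1d12 and Map3k2. Pearson's r over the 8 samples was 0.99 for Tnks and 0.98 for Map3k2, the last of the 10, as a description over arrays that share their normalization. Slc39a14, a zinc and iron importer, differed by 0.24 by number and Pygl, the liver form of glycogen phosphorylase, by 0.24. Gxylt2 differed by 0.48 and Gulp1, an adaptor for engulfment of dying cells, by 0.39, both wholly higher on arrays 1 and 2.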

How the data were processed

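Per the submitters' processing notes, RMA in Affymetrix Power Tools made the deposited intensity values, 1 array (Mouse Gene 1.0 ST) per sample. The sources used here give no versions, genome build or row filters. The intensities run from 5.81 to 19080, so they are linear, and log2 was taken with no pseudocount. RMA compresses changes of dim rows, and the number of arrays limits precision. Rows were named from the platform annotation: of 24922 rows, 21425 had 1 symbol, 1399 several and 2098 none. Rows with a mean below the 25th percentile (log2 6.35) were left out and the brightest row per gene kept, which left 15007 genes.

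The genotype test was limma 3.58.1 under R 4.3.3 (group alone, default empirical Bayes, Benjamini-Hochberg over all genes, threshold 0.05, ST2 flox minus ST2 WT), tested on simulated data. Title numbers were described without a test, and a fit with group, number pair and their interaction gave differences within pairs. Group means in the text are over 4 samples. The members and lists were chosen with earlier results of these data known. Genes named outside the 10 were taken from, in each list, up to 4 with the smallest p by genotype and up to 4 with the largest difference by number, markers below the filter, and the 10 most similar profiles. Not all of these are named. Ncf1, outside that rule, was named after its values were seen. Alternatives were other filters, row choice, normalizations, prior, blocks and leaving out each sample.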

Additional observations from a re-analysis of the deposited data

Results flagged for a closer look

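Saa3 on WT array 2, at a log2 intensity of 7.70, lay far from the other WT arrays (6.35, 6.53 and 6.56), with a gap that exceeded Dixon's 95% critical value for 4 samples. Chance gives such a gap in about 1 in 20 groups. Each of the 10 genes has a group in both genotypes, so nothing is read from this gap. WT array 2 was also the highest WT array for Lcn2, Hp, Serpina3n, Wfdc17, S100a8, S100a9 and Csf3r.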

How the results depend on the processing

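Without each array in turn, genes called by genotype ranged from 0 to 2 (2 without flox array 4), those called for the interaction from 0 to 328, genes apart by number from 1988 to 2988 (1613 with all arrays) and members apart from 3 to 8. Leaving out an array can only keep or raise the counts apart by number, since fewer arrays are left to overlap. The count called by genotype among the members was 0 in every alternative run. In all, 4 members changed sign by genotype when an array was left out: Hp ranged from -0.039 to 0.52, Serpina3n from -0.17 to 0.64, Wfdc17 from -0.13 to 0.50 and Plac8 from -0.0027 to 0.64, each lowest without flox array 1 and highest without flox array 4. Serpina3n and Wfdc17 were also below 0 without flox array 2 (-0.0037 and -0.11) or WT array 3 (-0.12 and -0.056). Why was not tested. Normalization, filter, row choice and prior changed no call and no sign. Deviations of same-numbered samples from their group means correlated at -0.002, 0.35, 0.25 and 0.04 for numbers 1 to 4, so the numbers were not taken to pair the samples. With the replicate block limma called 0 genes (smallest adjusted p 0.871, 694 genes at an unadjusted p under 0.05), and with the number pair as a block 0 genes (smallest adjusted p 0.753, 929 genes).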

Other observations

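Of 9 genes that handle iron and haemoglobin, 2 lay wholly higher on arrays 1 and 2, as 4.54% of all genes did, and 1 wholly lower, as 6.21% did, while the other 6 overlapped. Hmox1, which breaks down haem, was at 9.90, 10.37, 8.85 and 8.71 on ST2 flox arrays 1 to 4, against 9.30, 9.46, 8.99 and 8.69 on ST2 WT arrays 1 to 4, and was wholly higher on arrays 1 and 2, by 0.95. Cd163, the receptor for haptoglobin bound to haemoglobin, was wholly higher there by 0.47. Tfrc, the transferrin receptor, was wholly lower there, at -0.69, with levels of 10.20 and 10.59 on flox arrays 1 and 2 and 11.17 and 10.98 on flox arrays 3 and 4, against 10.55, 10.24, 10.94 and 11.26 on WT arrays 1 to 4. Of the 9 genes of this list limma called 0 by genotype (smallest adjusted p 0.912).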
